A study of Homo sapiens with 6 samples.

Results

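Collagen chains, the products of the COL genes, were followed in A375, an established human melanoma cell line, after silencing of FAH. FAH encodes fumarylacetoacetate hydrolase, the last enzyme of tyrosine breakdown. Chains were chosen by symbol alone: every gene named COL, a type number, A and a chain number, read by its brightest probe set with 1 gene symbol. This gave 43 chains among 18372 genes measured. Of these, 20 had a mean log2 signal above the median of all genes (5.46) and 23 lay below it and are called dim here. The chains nearest that limit were COL26A1 (5.34) and COL11A2 (5.34) below it, and COL13A1 (5.50) and COL2A1 (5.54) above it. Cells had been transfected with siRNA against FAH (siFAH, 3 arrays) or with negative control siRNA (3 arrays) and were collected at 72 h, each sample on 1 Affymetrix Human Gene 1.0 ST array. The arrays are named as biological replicates of 1 cell line, and which FAH siRNA was used on the arrays was not given in the labels. Signals of different probe sets are not on a common scale, so changes are given for each chain between groups, as siFAH minus control siRNA, and ratios of 2 chains are read only for their difference between groups.

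Collagens are extracellular proteins built from chains that wind around each other into a helix. Fibrillar chains assemble into the banded fibers of skin, bone and tendon, type IV chains form the sheet of the basement membrane, type VI chains form beaded filaments, and the fibril-associated (FACIT) chains sit on fiber surfaces. Each chain is hydroxylated, glycosylated and folded in the endoplasmic reticulum, trimmed outside the cell by proteases and cross-linked by oxidases and peroxidases, and cells bind the product through integrins and discoidin domain receptors. In skin, melanoma cells that invade meet the type IV collagen of the basement membrane before the fibrillar collagen of the dermis.

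COL4A2, a chain that fell after FAH silencing, lies head to head with its partner chain COL4A1 on chromosome 13, and the 126 bases between their start sites are shown because they are upstream sequence of both genes. In this run (GRCh38.p14, chr13:110307158-110307283, + strand, RefSeq), capitals mark a CCAAT box (CCAAT) and a GC box (GGGCGG).

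COL4A1-COL4A2 interval: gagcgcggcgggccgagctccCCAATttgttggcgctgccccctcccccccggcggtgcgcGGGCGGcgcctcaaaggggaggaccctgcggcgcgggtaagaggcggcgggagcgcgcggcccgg

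Its GC content was 80.2%, and the TATA box (TATAAA) was not found on either strand. Among all promoter windows of that length, 21.1% hold CCAAT, 34.6% GGGCGG and 5.87% TATAAA. The 250 bases before a RefSeq start of COL12A1 and of PXDN, the peroxidase that cross-links type IV collagen, are shown for the other 2 genes on which the results turn. Each is read in the direction of its gene with the same motifs in capitals (a GC box on the opposite strand reads CCGCCC). The PXDN window lies inside the annotated gene, which extends to base 1744901, and so precedes a start within it.

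COL12A1, chr6:75206054-75206303, - strand: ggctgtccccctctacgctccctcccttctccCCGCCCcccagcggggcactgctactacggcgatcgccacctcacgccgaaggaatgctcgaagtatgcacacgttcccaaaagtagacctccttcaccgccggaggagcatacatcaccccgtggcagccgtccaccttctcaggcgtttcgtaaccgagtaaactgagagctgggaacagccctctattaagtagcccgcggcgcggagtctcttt

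PXDN, chr2:1744516-1744765, - strand: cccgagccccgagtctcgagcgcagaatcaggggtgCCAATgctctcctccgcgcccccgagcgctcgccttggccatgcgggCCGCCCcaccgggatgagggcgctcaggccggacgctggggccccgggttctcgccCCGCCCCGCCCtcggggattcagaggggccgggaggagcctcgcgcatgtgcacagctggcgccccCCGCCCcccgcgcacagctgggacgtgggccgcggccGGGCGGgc

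The COL12A1 window held 1 GC box and was 61.2% GC, and the PXDN window held 5 GC boxes and 1 CCAAT box and was 78.4% GC. A RefSeq promoter window was matched for 31 of the 43 chains. On either strand a GC box was present in 12 of 14 windows of chains above the median signal (85.7%), in 6 of 17 windows of dim chains (35.3%) and in 42.6% of all 35116 windows. The windows of COL4A1 and COL4A2 overlap and share the GC box printed above, so that box counts for both. Each chain had 1 window, while all windows were neither reduced to 1 per gene nor split by signal. Median GC content was 72.4% in the first of these sets, 63.2% in the dim chains and 58.0% in all windows. CCAAT was found in 21.4% of windows of chains above the median, 29.4% of those of dim chains and 32.0% of all windows, and TATAAA in 21.4%, 5.88% and 10.7%. These are counts of letters, and neither factor binding nor promoter use was measured.

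FAH itself read 4.92, 4.60 and 4.92 in the siFAH arrays and 5.48, 5.59 and 5.68 in the control arrays, with no overlap between groups. On the log2 scale it was 0.77 lower after silencing (log2 fold change -0.77, SE 0.10, limma adjusted p = 0.00213). Across genes, arrays of the same group correlated at 0.995 to 0.997 and arrays of different groups at 0.987 to 0.995. With limma fitted over all genes and a gene called at an adjusted p under 0.05, 6.38% of the 18372 genes were called lower and 3.48% higher. Calls differed by brightness: of the 9186 genes above the median signal 11.2% were called lower and 4.84% higher, against 1.52% and 2.11% of the 9186 dim genes. The lower genes made up 64.7% of all calls, a share that was 61.7% after quantile normalization, 56.2% after cyclic loess and 80.1% with median centring. The melanocyte lineage markers SOX10 and MITF were above the median signal while PMEL, MLANA and TYR were dim, and none of these 5 was called. All 7 fibroblast markers measured, all 3 endothelial markers and 2 of 3 keratinocyte markers were dim and none was called. Of 3 leukocyte markers PTPRC and CD3E were dim, and CD68, which encodes a lysosomal membrane protein, was called higher (log2 fold change 0.49, adjusted p = 0.00263, limma). Whether these markers have a part in the changes described here was not tested. The RNA came from whole cultures, so fewer cells with a transcript and less transcript per cell cannot be told apart.

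Few collagen chains passed the test. COL4A2 and COL12A1 fell and COL6A5 rose after FAH silencing, and the other 40 were not called. The share called lower, 4.65%, stood beside 6.38% of all genes, and the share called higher, 2.33%, beside 3.48%. Without correction, 5 of the 43 had p under 0.05 by limma: these 3, COL4A1 and COL8A1. Over all 18372 genes, 4808 had an unadjusted p under 0.05. The siFAH arrays lay wholly below the control arrays for 4 chains (9.3%, against 18.6% of all genes) and wholly above for 7 (16.3%, against 13.4%). All 4 that lay below were above the median signal, where they were 4 of 20 chains, against 31.5% of all genes of that class. The median log2 fold change was 0.06 over the 20 chains above the median signal, against -0.055 over all genes of that class, and 0.06 over the 23 dim chains, against 0.04 over all dim genes. Of the 43 log2 fold changes 35 were positive in the deposited scaling. That fell to 26 after cyclic loess, 25 after quantile normalization and 24 with each array centred on its median. The sign of the small changes thus depended on the scaling. Most of the fall lay in the dim chains, from 21 of 23 to 11, 10 and 12 under these scalings. Of all dim genes 65.1% were positive at first, then 45.1%, 43.6% and 46.4%. The 20 chains above the median signal had 14 positive, then 15, 15 and 12. Of all genes of that class 37.7% were positive, then 47.0%, 43.8% and 26.9%. Among the dim chains the median was 0.0013 with centring, -0.0096 after quantile normalization and -0.0079 after cyclic loess.

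**Figure D1:**
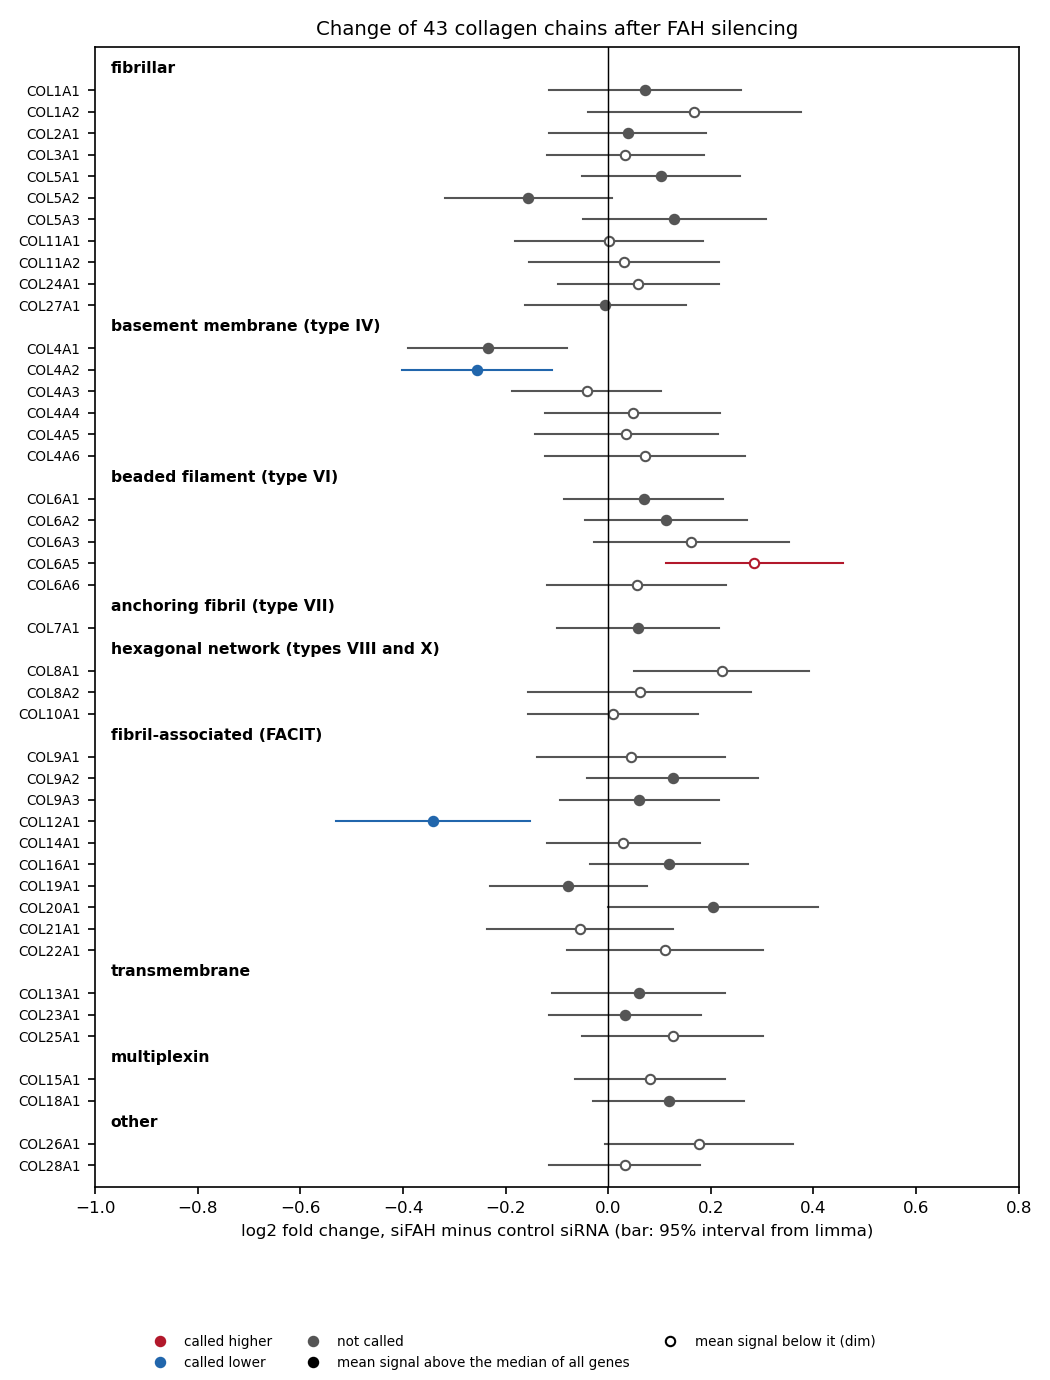
Log2 fold change of the 43 collagen chains, siFAH minus control siRNA, on the x axis, with bars for the 95% interval from limma (3 arrays in each group), grouped by class. Filled points are chains above the median signal of all genes and open points are dim chains. COL4A2 and COL12A1 (blue) were called lower and COL6A5 (red) higher, and most other intervals span 0.

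Of the type IV chains COL4A2 fell and COL4A1 just missed the threshold. COL4A1 and COL4A2 encode the chains of the common basement membrane network, and they were the only type IV chains above the median signal. COL4A2 had log2 signals of 7.46, 7.41 and 7.47 in the siFAH arrays and 7.66, 7.68 and 7.76 in the control arrays. The groups did not overlap, and the gap between them was wider than the spread within either. The log2 fold change was -0.26 (standard error 0.07, 95% interval -0.40 to -0.11, adjusted p = 0.0367, limma), so the siFAH signal was 0.837 times the control signal. COL4A1 read 6.85, 6.86 and 6.86 in the siFAH arrays and 7.00, 7.10 and 7.18 in the control arrays. Its groups did not overlap either, and the siFAH arrays were nearly identical (SD 0.0057, against 0.090 in the control arrays). The log2 fold change of COL4A1 was -0.235 (standard error 0.070, 95% interval -0.39 to -0.08), which missed the threshold at an adjusted p of 0.0597 by limma.

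Both type IV chains kept their direction under every alternative, but their calls did not. COL4A2 was no longer called after quantile normalization (-0.19, adjusted p = 0.0850) or cyclic loess (-0.17, adjusted p = 0.119), nor when any array but control replicate 1 was left out (adjusted p up to 0.118, limma). COL4A1 was called with median centring (-0.29, adjusted p = 0.0385) and without control replicate 1 (-0.28, adjusted p = 0.0448, limma). It was also called with dim genes left out (adjusted p = 0.0216), with array weights (adjusted p = 0.0237) and with a robust, trended prior (adjusted p = 0.0333). The other 4 chains of the family, which replace the common network in kidney, eye, ear and some epithelia, are also encoded as head-to-head pairs, COL4A3 with COL4A4 and COL4A5 with COL4A6. All 4 were dim and none was called, with log2 fold changes from -0.04 to 0.07 and adjusted p from 0.650 to 0.822.

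**Figure D2:**
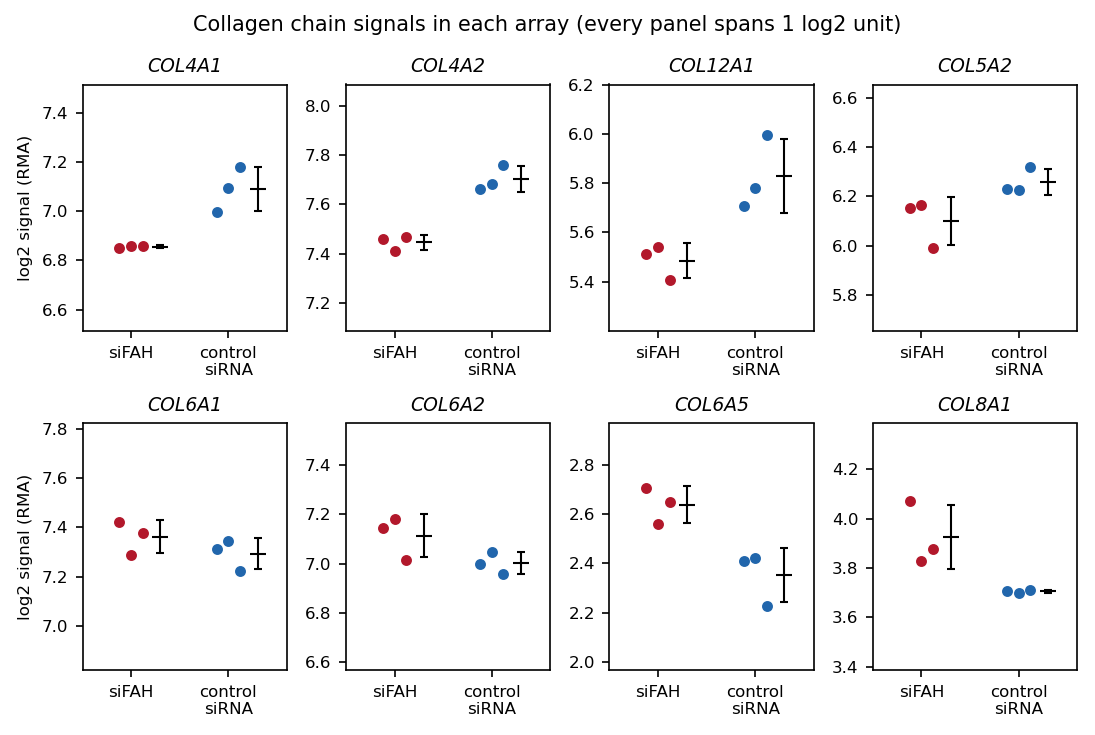
Log2 RMA signal of 8 collagen chains in each array, 3 siFAH arrays (red) left of 3 control siRNA arrays (blue), with the mean and SD of each group beside the points; each y axis spans 1 log2 unit. The siFAH points lie below all control points for COL4A1, COL4A2, COL12A1 and COL5A2, above them for COL6A5 and COL8A1, and among them for COL6A1 and COL6A2.

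COL12A1, a FACIT chain found on fibrils in dense connective tissue, had the largest fall among the chains. Its log2 signals were 5.51, 5.54 and 5.41 in the siFAH arrays and 5.71, 5.78 and 5.99 in the control arrays. The groups did not overlap, and control replicate 3 stood above the other control arrays. The log2 fold change was -0.34 (standard error 0.09, 95% interval -0.53 to -0.15, adjusted p = 0.0335, limma), with the siFAH signal 0.789 times the control signal. COL12A1 stayed called after each of the 3 other scalings. It was lost when any array but control replicate 1 was left out (adjusted p up to 0.122), and the change was -0.26 without control replicate 3. The other 9 FACIT chains were not called, and none had an unadjusted p under 0.05 by limma, against 4808 of all 18372 genes. COL9A3, a chain of the cartilage type IX collagen, read 7.75, 7.80 and 7.91 in the siFAH arrays and 7.79, 7.76 and 7.72 in the control arrays, and the groups overlapped (0.06, adjusted p = 0.626). Its partner COL9A2 had 0.13 (adjusted p = 0.322). COL19A1 had -0.08 (adjusted p = 0.517). COL16A1 and COL20A1 lay higher in every siFAH array than in any control array without passing the test (0.12, adjusted p = 0.311, and 0.20, adjusted p = 0.192). The 4 dim FACIT chains COL9A1, COL14A1, COL21A1 and COL22A1 ranged from -0.06 to 0.11.

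Among fibrillar collagens none of 11 chains was called, 6 of them above the median signal and 5 dim. Their log2 fold changes ran from -0.16 to 0.17, and the 95% intervals of all 11 lay between -0.32 and 0.38. None of the 11 had an unadjusted p under 0.05 by limma, and none was called under any alternative run. Over all 18372 genes, 6.38% were called lower, 3.48% were called higher and 4808 had such a p. A change of the size seen for FAH lies outside each of these intervals. A fall of the size seen for COL4A2 (-0.26) lies inside the interval of COL5A2. A rise of that size lies inside those of COL1A2 and COL5A3. COL1A1, a chain of the main collagen of skin and bone, read 5.57, 5.76 and 5.87 in the siFAH arrays and 5.69, 5.70 and 5.59 in the control arrays. The control values lay within the siFAH range (log2 fold change 0.07, adjusted p = 0.640, limma). Its partner COL1A2 was dim and had 0.17 (95% interval -0.04 to 0.38, adjusted p = 0.288), and COL3A1, the chain of the type III collagen that accompanies type I in skin, was dim with 0.03 (adjusted p = 0.802). COL2A1, the cartilage chain, had 0.04 (adjusted p = 0.770) and COL27A1, another chain of cartilage, -0.0055 (adjusted p = 0.973), and both signs turned under other scalings. Dim COL11A1 and COL11A2, chains of the cartilage type XI, had 0.0019 and 0.03, and dim COL24A1 had 0.06.

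No chain of type V, the collagen that regulates the diameter of type I fibrils, was called. COL5A2 read 6.15, 6.16 and 5.99 in the siFAH arrays and 6.23, 6.22 and 6.32 in the control arrays. It was the only fibrillar chain whose groups did not overlap, and its log2 fold change of -0.16 (95% interval -0.32 to 0.01) did not pass the test (adjusted p = 0.208, limma). COL5A1 read 6.02, 5.95 and 6.11 in the siFAH arrays and 5.88, 5.96 and 5.94 in the control arrays (0.10, adjusted p = 0.379). COL5A3 had 0.13 (adjusted p = 0.345). The log2 ratio of COL5A1 to COL5A2 within an array was -0.13, -0.21 and 0.12 in the siFAH arrays and -0.35, -0.27 and -0.38 in the control arrays, a difference of 0.26 with no overlap. All 6 pairs of chains of the same type that were both above the median signal were compared by an exact two-sided permutation test, a comparison chosen after the signals had been seen. With 3 arrays against 3 the smallest p possible is 0.1, which this ratio reached (exact p = 0.1, adjusted over the 6 pairs 0.6). The ratio of COL5A2 to COL5A3 differed by -0.28 (exact p = 0.2). COL4A1 over COL4A2 differed by 0.02, COL6A1 over COL6A2 by -0.04, COL9A2 over COL9A3 by 0.06 and COL5A1 over COL5A3 by -0.03 (exact p from 0.5 to 0.8), each with overlapping groups.

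**Figure D3:**
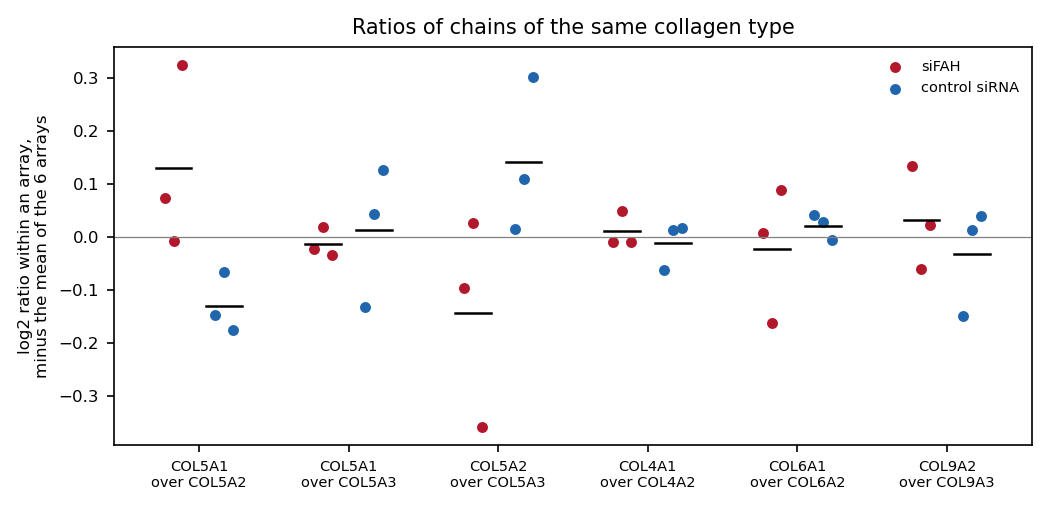
Log2 ratio of chains of the same collagen type within each array, minus the mean of the 6 arrays, on the y axis, for 6 pairs of chains above the median signal; siFAH arrays (red) are left of control siRNA arrays (blue) and lines are group means. The groups separate only for COL5A1 over COL5A2, and the points of COL4A1 over COL4A2 lie within 0.1 of 0.

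Type VI collagen gave the 1 chain that was called higher, in a dim probe set. COL6A5 read 2.71, 2.56 and 2.65 in the siFAH arrays and 2.41, 2.42 and 2.23 in the control arrays, without overlap, and 3.9% of all genes had a lower mean signal. Its log2 fold change was 0.285 (standard error 0.078, 95% interval 0.11 to 0.46, adjusted p = 0.0445, limma). The call was lost with each of the 3 other scalings (0.21 to 0.23, adjusted p from 0.0745 to 0.107) and without any 1 of the 6 arrays (adjusted p from 0.0530 to 0.128). The chains of the common type VI filament were not called. COL6A1 read 7.42, 7.29 and 7.38 in the siFAH arrays and 7.31, 7.34 and 7.22 in the control arrays, with overlap (0.07, adjusted p = 0.574). COL6A2 read 7.14, 7.18 and 7.02 in the siFAH arrays and 7.00, 7.05 and 6.96 in the control arrays, also with overlap (0.11, adjusted p = 0.349). COL6A3, which completes that filament, was dim and had 0.16 (adjusted p = 0.262), and dim COL6A6 had 0.06 (adjusted p = 0.702).

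The remaining 11 chains were not called. COL8A1, of the hexagonal network that lines blood vessels and the cornea, was dim and read 4.07, 3.83 and 3.88 in the siFAH arrays and 3.71, 3.70 and 3.71 in the control arrays. The groups did not overlap, and siFAH replicate 1 stood above the other siFAH arrays (0.22, 95% interval 0.05 to 0.39, adjusted p = 0.0985). COL8A2 and COL10A1 of the same class had 0.06 and 0.01. COL18A1, the source of the fragment endostatin, read 6.30, 6.23 and 6.33 in the siFAH arrays and 6.20, 6.19 and 6.11 in the control arrays. Both COL18A1 and its relative COL15A1 lay higher in every siFAH array than in any control array, and neither passed the test (0.12, adjusted p = 0.292, and 0.08, adjusted p = 0.471). COL7A1, the anchoring fibril under the epidermis, had 0.06 (adjusted p = 0.654). The membrane-spanning chains COL13A1, COL23A1 and COL25A1 had 0.06, 0.03 and 0.13 (adjusted p from 0.351 to 0.80). COL26A1 had 0.18, also without overlap (adjusted p = 0.203), and COL28A1 had 0.03 (adjusted p = 0.80).

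The genes that make, trim, cross-link and bind collagen were then read from a list of 69, of which 65 were measured. In siFAH arrays 6 were called lower (9.23%, against 6.38% of all genes) and 2 higher (3.08%, against 3.48%). Of the 44 above the median signal, 13.6% were called lower, against 11.2% of all genes of that class, and their median log2 fold change was -0.045, against -0.055. For 14 of the 65 the siFAH arrays lay wholly below the control arrays (21.5%, against 18.6% of all genes) and for 8 wholly above (12.3%, against 13.4%). All 6 lower genes were above the median signal.

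Of 6 cross-linking genes, 5 of them above the median signal, PXDN and LOXL3 fell and 4 were not called. The share called lower was 33.3%, against 6.38% of all genes and 11.2% of those above the median signal. In 4 (66.7%) the siFAH arrays lay wholly below the control arrays. That held for 18.6% of all genes and 31.5% of those above the median signal. PXDN, the peroxidasin that forms sulfilimine cross-links in type IV collagen, read 6.77, 6.94 and 6.73 in the siFAH arrays and 7.42, 7.41 and 7.44 in the control arrays. The gap between the groups was wider than the spread within either, and the log2 fold change was -0.61 (standard error 0.07, 95% interval -0.78 to -0.45, adjusted p = 0.00175, limma), with the siFAH signal 0.654 times the control signal. LOXL3, a lysyl oxidase that starts cross-links between lysines, read 7.77, 7.74 and 7.57 in the siFAH arrays and 8.09, 8.09 and 8.35 in the control arrays, again without overlap. The log2 fold change of LOXL3 was -0.49 (standard error 0.09, 95% interval -0.69 to -0.28, adjusted p = 0.0110, limma). Both genes stayed called without any 1 array and under every alternative but the methods' t-test (adjusted p = 0.0924 for PXDN and 0.139 for LOXL3). The related LOXL4 (-0.36, adjusted p = 0.0503) and LOXL2 (-0.22, adjusted p = 0.0595) lay below the control arrays in every siFAH array and just missed the threshold, and both were called with median centring. LOXL1 had 0.02 and dim LOX had -0.13.

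**Figure D4:**
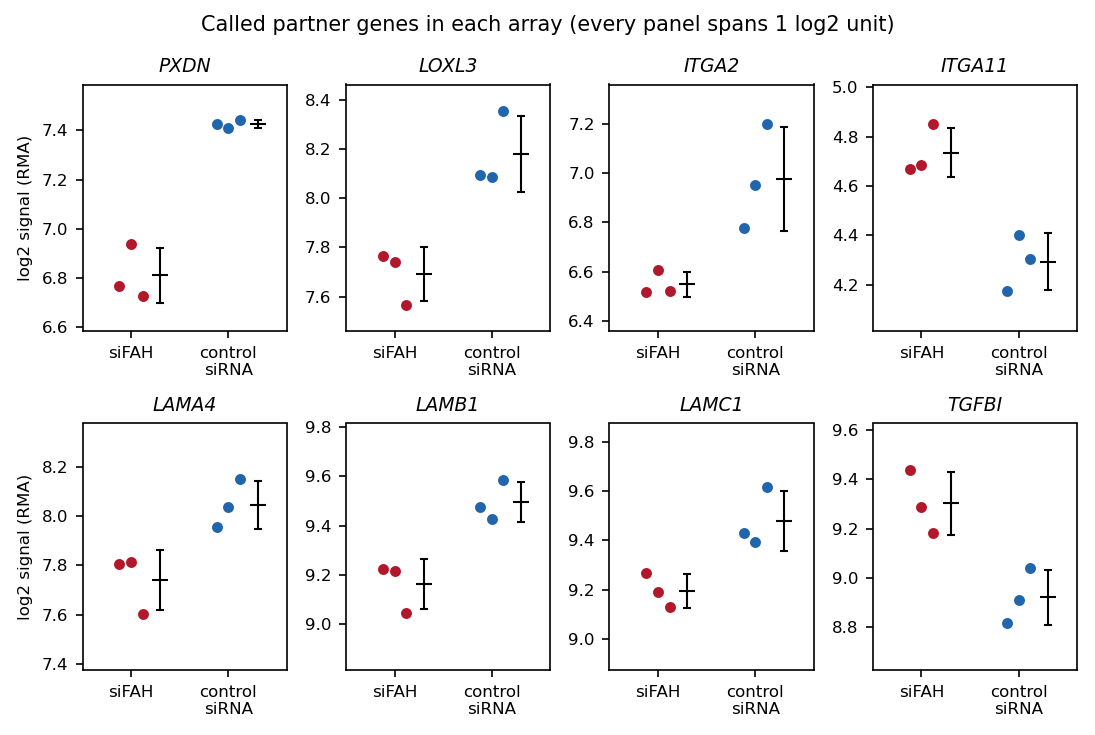
Log2 RMA signal in each array of the 8 called genes of collagen cross-linking, binding and the basement membrane, 3 siFAH arrays (red) left of 3 control siRNA arrays (blue), with mean and SD. The siFAH arrays lie below the control arrays for PXDN, LOXL3, ITGA2, LAMA4, LAMB1 and LAMC1, and above them for ITGA11 and TGFBI.

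The laminins, which form the basement membrane network alongside type IV collagen, gave 3 further lower calls. These were 3 of 13 basement membrane genes measured (23.1%), against 6.38% of all genes and 11.2% of those above the median signal. LAMB1 read 9.23, 9.21 and 9.04 in the siFAH arrays and 9.48, 9.43 and 9.58 in the control arrays (-0.33, standard error 0.08, adjusted p = 0.0248, limma). LAMA4 read 7.81, 7.82 and 7.60 in the siFAH arrays and 7.96, 8.04 and 8.15 in the control arrays (-0.31, standard error 0.08, adjusted p = 0.0443). LAMC1 read 9.27, 9.19 and 9.13 in the siFAH arrays and 9.43, 9.39 and 9.62 in the control arrays (-0.28, standard error 0.08, adjusted p = 0.0484). None of the 3 overlapped between groups; these 3 chains are the parts of 1 known laminin trimer. LAMB2 had -0.33 without overlap and missed the threshold (adjusted p = 0.0525), and it was called in 7 of the alternatives, median centring (adjusted p = 0.0347) among them. The calls of LAMA4 and LAMC1 were lost after quantile normalization and cyclic loess. LAMA4 remained called without control replicate 1, LAMB1 remained called without control replicate 1 or siFAH replicate 1, and LAMC1 was lost whichever array was left out (adjusted p from 0.0592 to 0.159). The other basement membrane genes were not called. Among them HSPG2 (perlecan) had 0.03, AGRN 0.0032, LAMA5 -0.03, NID1 0.11 and dim NID2 0.17.

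Of 8 collagen receptors 1 was called lower (12.5%, against 6.38% of all genes), 1 higher (12.5%, against 3.48%) and 6 were not called. ITGA2, the alpha subunit of the integrin that binds type I and type IV collagen, read 6.52, 6.61 and 6.52 in the siFAH arrays and 6.78, 6.95 and 7.20 in the control arrays. The groups did not overlap (-0.43, standard error 0.10, adjusted p = 0.0255, limma). ITGA11, the alpha subunit of a receptor for fibrillar collagen, was dim and read 4.67, 4.68 and 4.85 in the siFAH arrays and 4.17, 4.40 and 4.31 in the control arrays. It also showed no overlap (0.44, standard error 0.08, adjusted p = 0.0109). ITGA11 stayed called without any 1 array, and ITGA2 only without control replicate 1 (adjusted p up to 0.0852 without the other 5). DDR2, the discoidin domain receptor for fibrillar collagen, lay below the control arrays in every siFAH array (-0.22, adjusted p = 0.10), and DDR1 had 0.11 (adjusted p = 0.404). Among matrix proteins that bind collagen TGFBI read 9.44, 9.29 and 9.18 in the siFAH arrays and 8.82, 8.91 and 9.04 in the control arrays, without overlap (0.38, standard error 0.09, adjusted p = 0.0233). Its call was lost without siFAH replicate 1, siFAH replicate 2, control replicate 1 or control replicate 2 (adjusted p up to 0.0746). BGN (biglycan) had 0.27 (adjusted p = 0.0888) and was called in 7 of the alternatives, quantile normalization (adjusted p = 0.0345) and cyclic loess (adjusted p = 0.0265) among them. SPARC had -0.12, and DCN, LUM and FMOD were dim and not called.

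The intracellular steps showed no called gene, and PLOD1 and PPIB were the 2 of 24 with an unadjusted p under 0.05 by limma. Such a p was found for 4808 of all 18372 genes and for 3412 of the 9186 above the median signal. Prolyl hydroxylation had 9 measured genes, of which P4HA1, a catalytic subunit of prolyl 4-hydroxylase, had the largest change (-0.18, adjusted p = 0.223), then CRTAP (-0.15, adjusted p = 0.273). In lysyl hydroxylation and glycosylation all 4 log2 fold changes were negative, as were 5719 of the 9186 genes above the median signal. PLOD1 had -0.21 (adjusted p = 0.161, limma) and PLOD2 had -0.15 (adjusted p = 0.359). Of the 4, 1 was positive after quantile normalization and after cyclic loess. Of 11 genes of folding and export PPIB, a prolyl isomerase, had -0.19 (adjusted p = 0.142; -0.29 and called after quantile normalization, adjusted p = 0.0421) and SERPINH1, the collagen chaperone HSP47, had 0.15 (adjusted p = 0.244). Outside the cell all 8 procollagen proteases and their enhancers were positive, again uncalled, and 6 or 7 of the 8 were positive under the other scalings. Of the 8, 4 were dim. In the deposited scaling 65.1% of all dim genes and 37.7% of those above the median signal were positive. PCOLCE, which enhances removal of the C-terminal propeptide, read 9.424, 9.313 and 9.197 in the siFAH arrays and 9.067, 9.120 and 9.029 in the control arrays, without overlap (0.24, adjusted p = 0.0735), and it was called in 4 of the alternatives, cyclic loess among them. TLL2, a relative of the C-terminal protease BMP1, had 0.20 (adjusted p = 0.165) and was called with array weights.

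**Figure D5:**
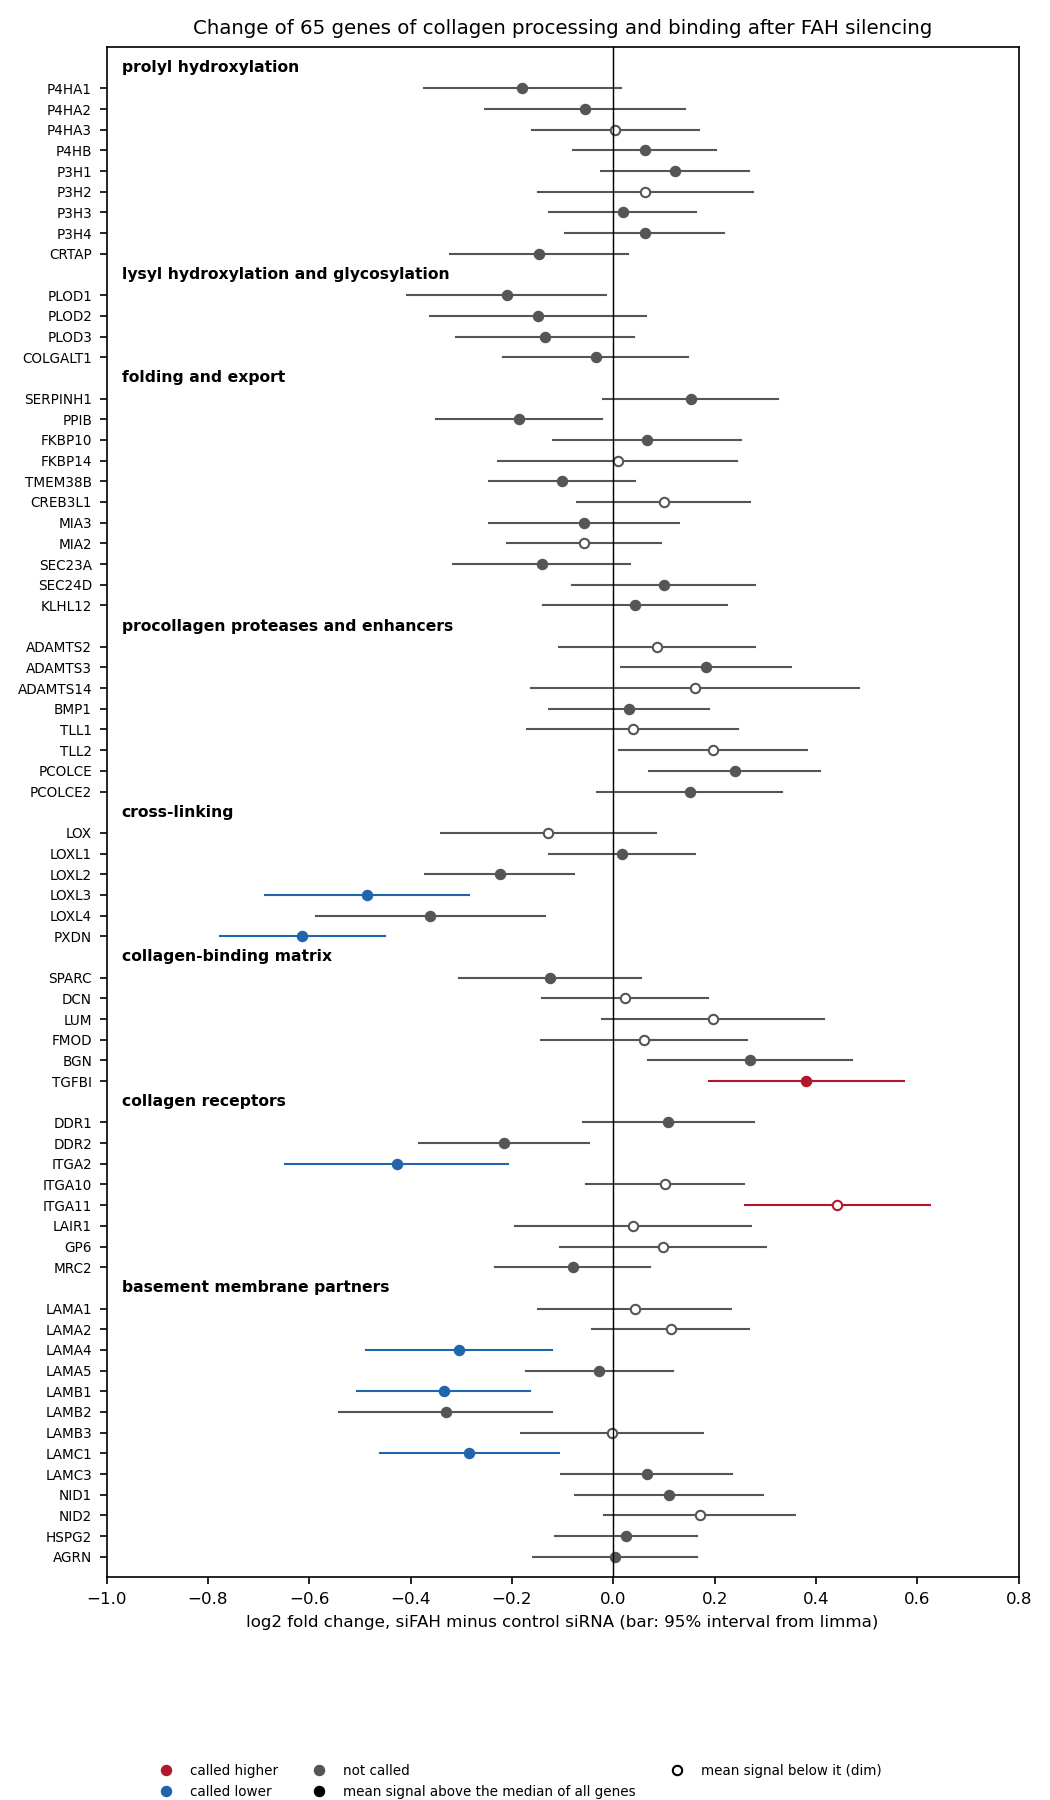
Log2 fold change of 65 genes of collagen modification, processing, cross-linking and binding, siFAH minus control siRNA, on the x axis, with bars for the 95% interval from limma, grouped by role. Blue points were called lower, red points higher and grey points were not called; filled points are above the median signal. The lower calls lie in cross-linking, the receptors and the basement membrane partners.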

How the data were processed

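The deposited values were log2 signals that the authors made by RMA with global scaling from 6 Affymetrix Human Gene 1.0 ST arrays, with no version named. No further scaling was applied for the main results. Of 28829 probe sets, 19291 carried 1 gene symbol, 1735 several and 7803 were not named here; gene IDs of 19260 matched RefSeq, and 0 symbols changed. The brightest probe set per symbol gave 18372 genes. Groups were compared with lmFit and eBayes (limma 3.58.1, R 4.3.3, 4 residual and 6.52 prior degrees of freedom), with Benjamini-Hochberg adjustment over all genes, and the fit was tested on simulated data. P values from limma set the difference between groups against the spread within groups, moderated by the prior from all genes. The number of arrays limits the precision. Exact tests used scipy 1.17.1 and figures matplotlib 3.10.9. COL17A1 of the chains, 4 of the 69 other genes and DCT of the markers were not analysed here. COL11A2 has 3 probe sets; a probe set shared by PNLIP and COL1A2 was not used.

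The rule for naming genes took FAH, each chain above the median signal, each called chain and the 3 dim chains with the largest absolute change. Of the 69 other genes it took each called gene and the 2 in each role with the largest absolute change. Chains and genes named outside it, to account for all members of a class, were chosen after their values were seen. The members and lists were chosen with earlier results of these data known. Motifs were searched on both strands of the 250 bases before each RefSeq start (GRCh38.p14). Some starts lie inside the annotated span of their gene, those used for PXDN, COL27A1 and COL9A1 among them. Each result was also computed with 3 other scalings, without dim genes, with a gene's probe sets averaged, with array weights, and with a robust, trended prior in eBayes. Other tests were SAM (20 arrangements) and limma at the methods' limits of 1.2-fold and unadjusted p under 0.05, and the methods' t-test. Further fits had the replicate number as a block or omitted 1 array at a time.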

Additional observations from a re-analysis of the deposited data

How the results depend on the processing

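FAH stayed lower under every alternative that tested it and was called in all but the methods' t-test (-0.77, adjusted p = 0.118; adjusted p from 0.000439 to 0.118 over the alternatives). Against 2 collagen chains called lower and 1 higher, the counts were 1 and 0 after quantile normalization and after cyclic loess. Over all genes quantile normalization gave 1053 lower and 655 higher, and cyclic loess 893 and 695. The chain counts were 0 and 0 with the methods' t-test, which called only 8 lower and 6 higher of all 18372 genes. With SAM or limma at the methods' limits they were 1 and 1, and COL4A2 fell short of 1.2-fold. Over all genes SAM called 1429 lower and 855 higher, and limma at those limits 1439 and 871. With median centring, and with dim genes left out (which leaves COL6A5 untested), 3 were lower and 0 higher. Over all genes median centring called 1678 lower and 416 higher. With dim genes left out, 1733 of 9186 genes were lower and 725 higher. Leaving out 1 array gave 0 to 3 lower, with 3 only without control replicate 1, and 0 higher. Over all genes these fits called 390 to 1192 lower and 267 to 653 higher, against 1172 and 639 in the main fit. The most lower calls over all genes also came without control replicate 1. Of the 65 other genes 6 were lower and 2 higher. With dim genes left out 10 were lower, and with the methods' t-test 0 were lower and 0 higher. After cyclic loess 4 were higher, and with array weights 5. Over all genes the higher calls were 695 after cyclic loess and 1170 with array weights, against 639 in the main fit. Leaving out 1 array gave 2 to 7 lower and 1 to 3 higher of the 65. The median log2 fold change of chains above the median signal was 0.0602, and 0.0060 with median centring. Over all genes above the median signal it was -0.055, and -0.1092 with median centring, where the median of all genes was -0.0492. Over the genes named by rule and their alternatives, 603 comparisons kept direction and call, 70 lost the call, 25 gained it and 10 turned sign. Those that turned were all small: COL2A1 (-0.0159 with median centring; -0.0086 to 0.0637 leaving out 1 array), COL23A1 (-0.0216 with median centring), COL13A1 (-0.0097 with array weights; -0.0039 to 0.1087 leaving out 1 array) and COL27A1 (0.0073 after quantile normalization, 0.0176 after cyclic loess; -0.0462 to 0.0308 leaving out 1 array). The cause was not tested.

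With the replicate number as a block, 0 chains were lower and 0 higher, and 3 of the other genes were lower and 1 higher (FAH -0.77, adjusted p = 0.00600). Over all genes that fit called 462 lower and 299 higher. The labels do not say whether equal numbers mark paired samples. Deviations of same-numbered arrays from their group means correlated at -0.155, -0.0891 and -0.274, and no array correlated best with its own number. With 3 arrays in each group, whose deviations add up to 0, these values cannot decide whether samples were paired.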
